A study of Mus musculus with 15 samples.

Results

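A set of 3 single cells of mouse inguinal fat with a high level of Gdf10 was compared with 10 other cells of the same sort. The series holds 15 Tomato+ cells, each a library of its own, and the members were chosen by a Gdf10 value of 6 or more on the deposited log2 scale. Cells 2, 8 and 14 reached it. Cells 5 and 13, which carry genes of mural cells, were left out, so that cells 1, 3, 4, 6, 7, 9, 10, 11, 12 and 15 formed the comparison. The label calls the chosen cells Cd142-like, after the surface protein that F3 encodes.

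All cells came from adult C57BL/6 mice of the genotype Prrx1-CreERT;Tomato, injected with tamoxifen at 2 mg per 30 g of body weight once daily over 3 days. Tamoxifen activates the Cre recombinase, which follows Prrx1, a homeobox gene of limb and skeletal mesenchyme, and turns on the red Tomato reporter for good. The cells were freed from minced fat by collagenase, sorted for Tomato and picked one by one. No animal is named, so the 15 cells, which all carry the same genotype and treatment, count as 1 sample from an unknown number of mice. The split below was made on a measured value. It is therefore a description with no test and no p-value, and cells of 1 labelled group are not replicates of a condition.

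Gdf10 encodes a secreted ligand of the TGF-beta superfamily, also known as BMP3b, which is closest to BMP3 within that family. Such ligands bind pairs of receptor kinases that phosphorylate Smad proteins, and secreted binding proteins such as follistatin hold ligands back. In mouse subcutaneous fat, stromal cells with Cd142 on their surface have been described as a population beside the Dpp4+ progenitors and the committed preadipocytes, and their reported markers include F3, Fmo2, Clec11a, Mgp and Gdf10.

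Values are log2(FPKM + 1), where FPKM is a fragment count scaled to transcript length and to the size of the library. Detection of a gene here means 1 FPKM or more, which is a value of 1 on this scale. Levels are compared between cells within a gene, not between genes. Read depth is unknown. The number of table rows at a cell's lowest value, a rough measure of how few genes were seen, was 1061 in cell 2, 930 in cell 8 and 1877 in cell 14. In the comparison cells it ran from 1059 to 1974 with a median of 1432.5. Cell 8 thus had the fewest such rows among the 13 cells, while cell 14 was near the upper end, and the part of this breadth in the differences below was not tested.

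Gdf10 stood at 8.69 in cell 2, 8.03 in cell 8 and 6.91 in cell 14. These values chose the cells. Just below the threshold, cell 7 had 5.83, followed by cells 15 (4.87), 10 (4.73) and 11 (4.27), and the lowest comparison cell was cell 12 (0.78). Gdf10 was detected in 9 of the 10 comparison cells. The gene was therefore graded over the cells, and the step between cells 14 and 7 was close in size to the step between cells 8 and 14.

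Fmo2 and Clec11a were the check genes whose values did not overlap between the 3 Gdf10-high cells and the 10 comparison cells. Fmo2, a flavin monooxygenase that oxidises nitrogen and sulphur compounds, stood at 8.70 in cell 2, 8.32 in cell 8 and 4.83 in cell 14. In the comparison cells it ran from 0.29 to 3.15 with a median of 0.73, and 4 of these cells detected it. Clec11a, a secreted growth factor of bone and marrow with a lectin domain, stood at 7.41, 4.83 and 4.0 in the same order, against 0 to 3.48 with a median of 0.25. The comparison cell nearest to them was cell 12 for Fmo2 and cell 4 for Clec11a. The medians of the sets differed by 7.60 for Fmo2 and 4.58 for Clec11a. Across the whole table, 0.225% of the 8445 rows other than Gdf10 were higher in this way in every Gdf10-high cell. The check genes came with the rule, which was written with values of these cells known, so they are no independent support for it.

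Mgp and F3 were high in the Gdf10-high cells but overlapped with the others. Mgp, an inhibitor of calcification, stood at 10.49, 13.69 and 8.94 in cells 2, 8 and 14, and the comparison cells ran from 2.46 to 13.26 with a median of 7.10. For Mgp, 3 comparison cells exceeded cell 14, and cell 9 came close to cell 8, whose 13.69 is the top of the scale that every cell shares. F3, the cell surface receptor that starts blood clotting, stood at 10.90, 9.26 and 6.76, against 1.53 to 7.83 with a median of 5.68. Cells 2 and 8 lay above all comparison cells for F3, while cell 14 lay below cells 4, 7, 10 and 15. The medians differed by 3.39 for Mgp and 3.58 for F3.

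Each of the 3 cells detected all 5 markers. No other cell did: 5 comparison cells detected 4 of them, the other 5 detected 3, cell 5 detected 4 and cell 13 none. Since Gdf10 chose the cells and the check genes came with the rule, this count does not test the label. In cell 14 the gene the label is named for, F3, lay below 4 of the 10 comparison cells, so that Gdf10-high describes this cell better than Cd142-like. Cell 7, next below the threshold, had F3 at 7.83 but Fmo2 at 0.77 and Clec11a at 0.19. Among the 10 comparison cells alone, where Gdf10 ran from 0.78 to 5.83, the rank correlation with Gdf10 was 0.61 for F3, 0.08 for Mgp, −0.02 for Fmo2 and −0.15 for Clec11a. Below the threshold F3 thus tended to follow Gdf10 from cell to cell, and the other check genes did so little or not at all. These are descriptions over 10 cells that share 1 sort and were scaled together.

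**Figure D1:**
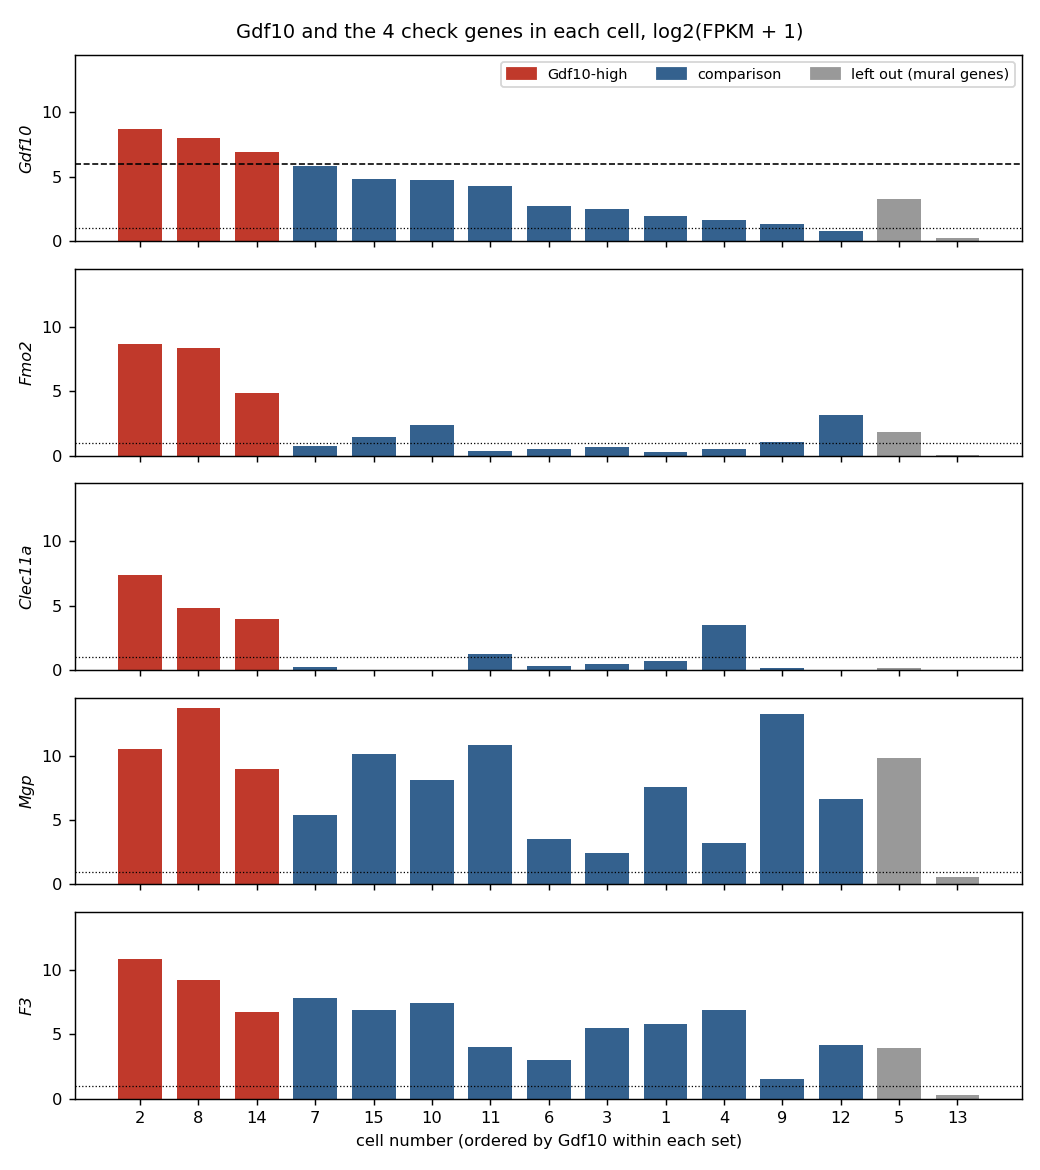
Deposited log2(FPKM + 1) values (y axes) of Gdf10, Fmo2, Clec11a, Mgp and F3 in the 15 cells (x axis, ordered by Gdf10 within each set); each bar is 1 cell, the dashed line is the Gdf10 threshold of 6 and the dotted lines mark 1 FPKM. Fmo2 and Clec11a are higher in each of the 3 red bars than in any blue bar, while Mgp and F3 overlap.

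The 250 bases before the annotated start are shown for Gdf10, which chose the cells, and for Fmo2 and Clec11a, the check genes without overlap. They come from RefSeq on GRCm38.p6 and are written 5′ to 3′ along the gene's strand. The windows are chr14:33923337-33923586 on the plus strand for Gdf10, chr1:162898759-162899008 on the minus strand for Fmo2 and chr7:44306960-44307209 on the minus strand for Clec11a. Capitals mark matches to the GC box GGGCGG on either strand, overlapping matches included.
Gdf10: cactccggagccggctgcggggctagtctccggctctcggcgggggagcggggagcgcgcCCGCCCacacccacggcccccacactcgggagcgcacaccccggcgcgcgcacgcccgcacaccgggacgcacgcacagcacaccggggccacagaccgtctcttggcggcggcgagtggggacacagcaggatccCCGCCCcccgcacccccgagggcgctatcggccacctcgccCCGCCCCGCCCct
Fmo2: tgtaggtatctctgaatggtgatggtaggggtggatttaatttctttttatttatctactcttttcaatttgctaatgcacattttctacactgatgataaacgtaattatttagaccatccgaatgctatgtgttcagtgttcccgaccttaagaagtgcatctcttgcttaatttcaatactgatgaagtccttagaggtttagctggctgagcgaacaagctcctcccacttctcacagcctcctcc
Clec11a: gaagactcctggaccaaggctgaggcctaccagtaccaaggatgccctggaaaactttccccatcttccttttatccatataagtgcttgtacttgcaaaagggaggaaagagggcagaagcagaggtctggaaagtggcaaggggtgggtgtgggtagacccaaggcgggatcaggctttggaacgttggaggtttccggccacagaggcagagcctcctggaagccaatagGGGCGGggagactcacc
The 3 windows differed in make-up. Gdf10 had 35 CpG dinucleotides and 4 GC boxes, Clec11a had 4 and 1, and Fmo2 had 4 and none. Over all 32817 windows of this length the median was 6 CpG, with quartiles of 2 and 16, and 32.7% held a GC box. F3, whose values overlapped between the sets, had 24 CpG and 3 GC boxes. Neither the TATA box TATAAA (in 12.4% of all windows) nor the EBF palindrome (0.78%) was found on either strand in these 4 windows. Mgp had no window in the table.

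The genes themselves lie on different chromosomes of GRCm38. Gdf10 (ENSMUSG00000021943) lies on chromosome 14 from 33923587 to 33937983, Fmo2 (ENSMUSG00000040170) on chromosome 1 from 162874317 to 162898726, and Clec11a (ENSMUSG00000004473) on chromosome 7 from 44302687 to 44306902. F3 (ENSMUSG00000028128) lies on chromosome 3 from 121723537 to 121735048, and Mgp (ENSMUSG00000030218) on chromosome 6 from 136872435 to 136875823. No other protein-coding, lincRNA or antisense gene of the annotation overlaps any of the 5.

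The wider Cd142 list had 11 genes with a row besides Gdf10. Of these, 2 were higher without overlap, 6 had a median at least 2 above that of the comparison cells, and none had one at least 2 below. Over all 8445 rows, 13.7% had a median at least 2 higher and 6.62% at least 2 lower. The median of the list's differences was 3.39, where the median over all rows was 0.00. It was 2.33 without cell 2, 1.98 without cell 8 and 4.40 without cell 14, and 1.98 with the Gdf10 threshold at 5. Because this list was compiled with results of these cells known, its count is a description of the choice as well as of the cells.

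The list as a whole stood higher in cells 2 and 8 than in cell 14. Rtp4, an interferon-induced chaperone of receptor proteins, stood at 3.96 in cell 2, 8.04 in cell 8 and 0 in cell 14, against 0 to 3.32 with a median of 0. Rtp4 overlaps Masp1, which runs the other way, and whether the counting used strand is not given, so its value is uncertain. The list's mean without Gdf10 was 6.04 in cell 2 and 7.18 in cell 8, above all comparison cells (2.51 to 4.41), and 3.59 in cell 14, within their range. Cells 2 and 8 detected 10 of the 11 genes each and cell 14 detected 7. Other members did not follow the split: Cygb, a globin of fibroblasts, stood at 7.43, 8.59 and 6.93 against a comparison median of 6.93, and Cyp1b1, Nrp1, Vit and Bst2 had differences of −0.21, 0.58, −0.13 and 1.12.

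Over all rows other than Gdf10, 19 of 8445 (0.225%) were higher without overlap in the Gdf10-high cells, Fmo2 and Clec11a among them, and 15 (0.178%) were lower. Among the lower genes, Loxl1, Thbs2, Itgav, Col12a1 and Nid1 encode matrix proteins or a matrix receptor, a grouping made after their values were seen. The higher genes with the largest differences of medians included Fmo2, Serpinb8, Mlkl, Ccdc174, Ramp1, Acot9, Hnrnph3, Oxnad1, Clec11a, Tbl2, Smim19, Acot10, Cpped1 and Gamt. A further 4, named outside the rule of the 15 largest, were Abhd16a, Gpsm2, Tspan4 and Eif5. With the Gdf10 threshold at 5, which adds cell 7, 8 rows were higher and 5 lower, and Fmo2, Clec11a, Serpinb8, Loxl1 and Thbs2 all overlapped.

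Serpinb8, an intracellular protease inhibitor, stood at 6.18 in cell 2, 7.45 in cell 8 and 8.89 in cell 14, and at 0 to 2.89 with a median of 0.07 in the comparison cells. It was highest in cell 14, as were Cpped1, Smim19, Abhd16a, Tspan4 and Eif5, while the other 13 higher genes peaked in cell 2 or 8. Ramp1, which pairs with the calcitonin-like receptor to form the receptor of the neuropeptide CGRP, stood at 5.65, 6.31 and 4.73, against 0 to 3.39 with a median of 0.17. Cell 5, left out for its mural genes, had Ramp1 at 5.92, within the range of the Gdf10-high cells. Mlkl, the pore-forming executor of necroptosis, stood at 7.33, 7.88 and 6.95, and cells 3 (6.51) and 9 (6.07) came near, while the comparison median was 0.60. Gamt, which makes creatine, stood at 5.77, 3.61 and 4.97 against a comparison range of 0 to 2.96, but at 7.39 in cell 5.

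For some of the higher genes the value may hold reads of another gene. Acot9 and Acot10 encode closely similar acyl-CoA thioesterases and followed each other: Acot9 stood at 6.41, 7.28 and 5.77 and Acot10 at 4.51, 5.51 and 3.99 in cells 2, 8 and 14, and cell 12 was the highest comparison cell for both (4.87 and 3.02). They are counted as 2 of the 19 although their reads may be shared. Oxnad1, Hnrnph3, Gpsm2, Smim19 and Tspan4 overlap Dph3, Rufy2, Clcc1, Slc20a2 and Chid1 on the opposite strand. Of the 19 higher genes, 7 overlapped with the cells left out. Ccdc174, Oxnad1 and Gpsm2 were at 8.89, 5.01 and 4.95 in cell 13, and Acot10, Ramp1, Gamt and Cpped1 were at 4.35, 5.92, 7.39 and 3.83 in cell 5, each above the lowest Gdf10-high cell.

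Among the 15 lower rows, Loxl1 and Thbs2 showed the widest gaps. Loxl1, a lysyl oxidase that cross-links elastin, stood at 1.70 in cell 2, 0.85 in cell 8 and 1.96 in cell 14. All 10 comparison cells had it between 5.81 and 8.18, with a median of 7.30. Thbs2, the matricellular protein thrombospondin 2, stood at 1.41, 2.08 and 2.61, against 5.20 to 9.16 with a median of 7.11. The cells left out were low as well, with Loxl1 at 3.73 in cell 5 and 0.41 in cell 13, and Thbs2 at 3.46 and 0.50. Low values of this pair were thus shared by the Gdf10-high cells and the cells with mural genes.

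A further 3 genes, which encode a matrix receptor or matrix proteins, were lower without overlap. Itgav, the integrin alpha V chain that binds matrix ligands and latent TGF-beta, stood at 1.12, 1.76 and 2.08, against 2.40 to 7.95 with a median of 5.61. Col12a1, a collagen that decorates fibrils, stood at 0.80, 0.73 and 0.65, below detection in each, against 2.20 to 8.82 with a median of 3.30. Nid1, the basement membrane linker nidogen, stood at 2.70, 6.30 and 6.07, against 6.72 to 8.57 with a median of 7.79. For Nid1 the gap to the nearest comparison cell, cell 12, was small in cells 8 and 14. Cell 5 had Itgav at 8.50, so that these genes did not go together in the cells left out.

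The remaining lower genes were of mixed kinds: Ing4, Ptov1, Gspt1, Glud1, Add1, Arhgef40 and Arl8a, with differences of medians from −5.80 for Ing4 to −2.52 for Arl8a. Gspt1 encodes the termination factor eRF3a and Glud1 the mitochondrial glutamate dehydrogenase. Gspt1 stood at 0.08, 0.74 and 0.94 against 2.20 to 7.51, and Glud1 at 1.06, 1.89 and 0.97 against 1.99 to 7.72. The 3 rows for ribosomal proteins, named outside the rule, were Rpl36al, Rpsa and Rpl14, with differences of −1.94, −1.68 and −0.40. Ribosomal protein genes have many near-identical copies, so their values are uncertain.

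**Figure D2:**
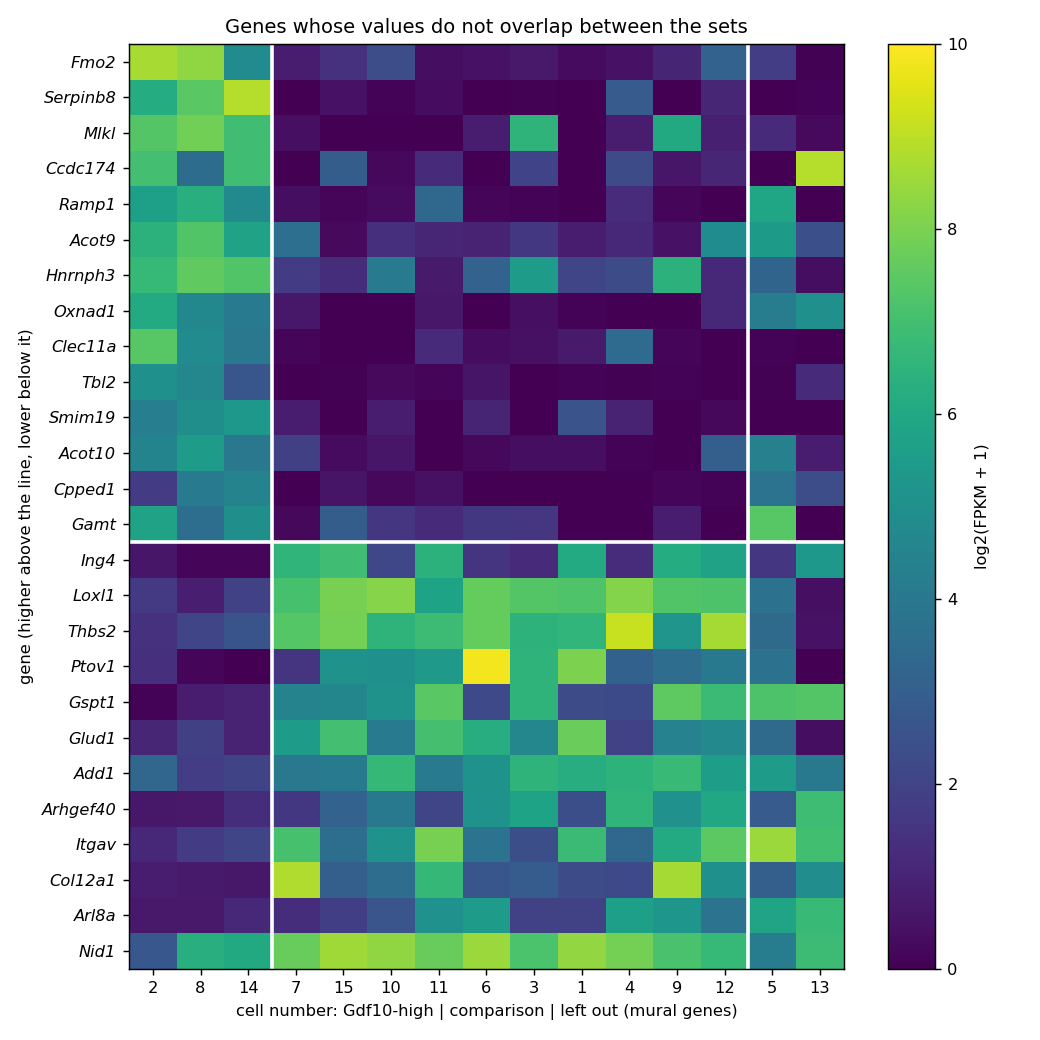
Deposited log2(FPKM + 1) values (colour, 0 to 10) of 14 of the named higher genes and the 12 named lower genes (y axis) in the 15 cells (x axis, in 3 blocks: Gdf10-high, comparison, left out). Loxl1 and Thbs2 are dark in the 3 Gdf10-high cells, light in the 10 comparison cells and dark again in cells 5 and 13.

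Within the TGF-beta superfamily, no ligand other than Gdf10, which the rule used, separated the sets. Of the 6 other ligands with a row, Bmp5 had a median at least 2 higher (16.7%, near the 13.7% of all rows). It stood at 3.74 in cell 2, 0.05 in cell 8 and 4.70 in cell 14, against 0 to 3.57. Bmp4, a ligand that favours adipose commitment, was high in cell 8 (7.13), low in cells 2 (0.26) and 14 (0), and 6.55 in the highest comparison cell. Of the 10 receptors, Tgfbr2 and Tgfbr3 were detected in all 3 Gdf10-high cells, at 3.36, 5.67 and 6.12 and at 5.46, 2.94 and 3.65. Their comparison medians of 5.59 and 4.48 lay within these ranges. Acvrl1, a receptor for BMP9, had a difference of 2.13, from 7.32, 3.89 and 0 against a median of 1.76. No receptor separated the sets.

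The secreted inhibitors and binding proteins of the family pointed both ways. Of 12 with a row, 2 had a median at least 2 higher (16.7%, near the 13.7% of all rows). A further 2 had one at least 2 lower, beside 6.62% of all rows. Ltbp4, which stores latent TGF-beta in the matrix, stood at 5.65, 6.38 and 4.95, against 1.16 to 6.33 with a median of 1.87, and 1 comparison cell (cell 6) overlapped. Chrdl1, an antagonist of BMPs, stood at 7.27, 5.02 and 3.82 against a median of 1.85. Fst, the activin-binding follistatin, stood at 0.80, 0.28 and 2.67 against 0.46 to 7.83 with a median of 5.10, and Ltbp1 at 0.52, 0.21 and 4.91 against a median of 3.13. Cells 1, 9 and 12, which are 3 of the comparison cells, had Fst below cell 14.

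Smads and target genes did not separate the sets either. Of 12 with a row, 2 had a median at least 2 higher (16.7%, near the 13.7% of all rows). Among these, Smad2, a transducer for the activin and TGF-beta branch, stood at 0, 3.70 and 4.58 against a highest comparison value of 2.30. Id1, Id2 and Id3, targets of the BMP branch, had differences of 0.70, −0.56 and 0.99. Many receptor and Smad values were near 0 in both sets, where a low gene can be missed, so that a value near 0 cannot be read as absence.

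Several complement genes stood higher in the Gdf10-high cells, with overlap for each gene. Of 14 genes with a row, 6 had a median at least 2 higher (42.9%, beside 13.7% of all rows). For 1 it was at least 2 lower, beside 6.62% of all rows, and the list's median difference was 1.61. That median was 1.04 without cell 2 and 0.84 without cells 1, 11 and 14. Cfb, the protease of the alternative pathway, stood at 8.28 in cell 2, 9.34 in cell 8 and 7.38 in cell 14, against 0.78 to 8.63 with a median of 4.18. C2, its counterpart in the classical pathway, stood at 8.87, 8.30 and 5.34, against 0.27 to 7.38 with a median of 4.42. Cfb and C2 are neighbours on chromosome 17 and share a read-through transcript, so their values may not be fully separate.

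The inhibitors of complement pointed both ways. Serping1, the C1 inhibitor, stood at 12.17, 12.47 and 11.11, against 8.25 to 11.22 with a median of 10.13, and 1 comparison cell exceeded cell 14. Clu, or clusterin, stood at 11.20, 6.41 and 6.07, against 0.85 to 7.17 with a median of 2.74, and again 1 comparison cell exceeded cell 14. Cd59a, which blocks the membrane attack complex, stood at 4.17, 5.00 and 1.04 against a median of 0.41. Cd55, a decay-accelerating factor and marker of Dpp4+ progenitors, was low instead, at 1.02, 1.78 and 2.09 against 1.39 to 9.02 with a median of 4.26. The abundant C3 showed no such difference, with 9.19, 5.49 and 9.42 against a median of 9.56. The mean over the list was 6.69 in cell 2 and 6.28 in cell 8, above the highest comparison cell (6.08), and 4.49 in cell 14, below the comparison median of 5.54.

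Among 28 matrix and remodelling genes, 2 were lower without overlap (Loxl1 and Col12a1), beside 0.178% of all rows. A median at least 2 higher was found for 4 (14.3%, near the 13.7% of all rows). For another 4 it was at least 2 lower, beside 6.62% of all rows, and the list median was −0.17. Timp1, an inhibitor of metalloproteinases, stood at 10.73, 9.68 and 7.34, against 2.35 to 10.29 with a median of 4.32. Timp1 lies inside Syn1 on the opposite strand. Mmp3, the stromelysin that cuts matrix proteins, stood at 9.73, 11.53 and 8.17, against 2.18 to 9.96 with a median of 4.83. In each of these genes 3 comparison cells exceeded cell 14. Lox, the relative of Loxl1, stood at 3.49, 0.80 and 5.52, against 0.71 to 8.12 with a median of 6.09. The fibrillar collagens did not follow: Col1a1, Col1a2 and Col3a1 had differences of −0.01, 0.05 and 0.18.

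**Figure D3:**
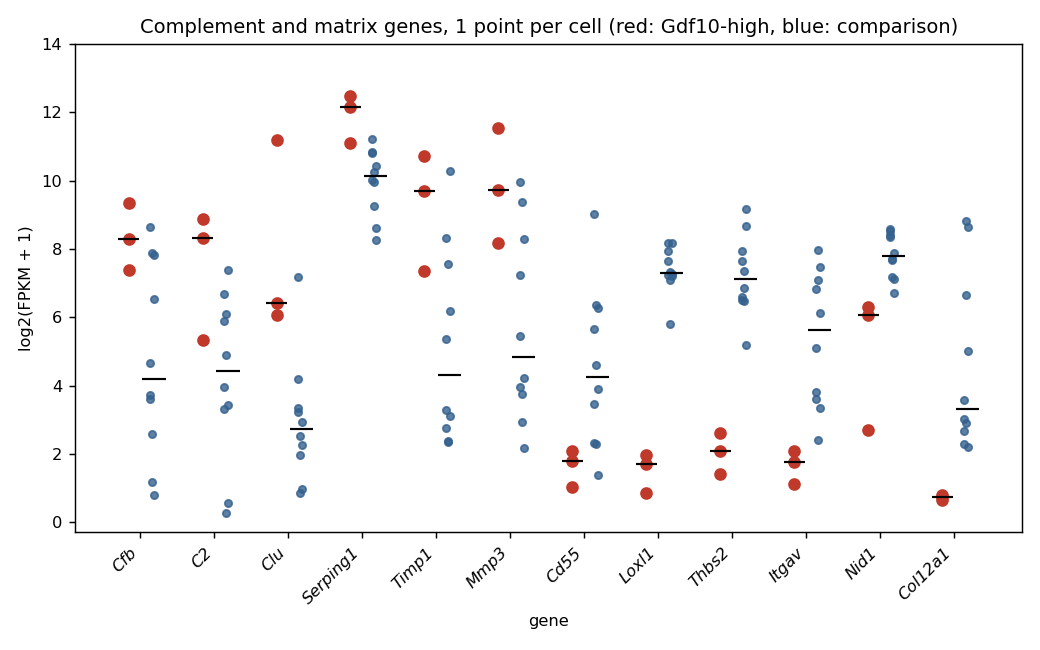
Deposited log2(FPKM + 1) values (y axis) of 12 complement and matrix genes (x axis), 1 point per cell, with the 3 Gdf10-high cells in red, the 10 comparison cells in blue and a bar at each median. Loxl1, Thbs2, Itgav, Nid1 and Col12a1 show no overlap, and for Serping1 and Clu 1 comparison cell lies above cell 14.

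The chosen cells had the general stromal profile, and genes of the Dpp4+ progenitor list were mixed in them. Of the 19 stromal progenitor genes with a row, cells 2 and 14 detected 18 and cell 8 detected 19, and the list's median difference was −0.01. Prrx1 stood at 4.85, 5.90 and 5.33, within the comparison range of 0.22 to 7.56. Pdgfra, the receptor of fibroblastic fat progenitors, stood at 3.33, 3.95 and 3.98, against 2.61 to 6.88 with a median of 5.43. Of the 19 Dpp4 progenitor genes, none had a median at least 2 higher, beside 13.7% of all rows. A median at least 2 lower was found for 2 (Cd55 and Creb5), beside 6.62% of all rows. Of the list's differences 6 were positive and 13 negative, with a median of −0.33. Dpp4 was not detected in any of the 3 cells, at 0.19, 0.05 and 0, but 6 of the 10 comparison cells also lacked it. Pi16, a further marker of that stage, stood at 5.12 in cell 2, the highest of the 13 cells.

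Preadipocyte genes were mixed, and Ebf2 and Ebf1 were low. Of 18 committed preadipocyte genes, 3 had a median at least 2 higher (16.7%, near the 13.7% of all rows), with a list median of 0.07. A further 2 had one at least 2 lower, beside 6.62% of all rows. Pparg, the master regulator of adipocyte differentiation, stood at 0, 4.19 and 6.25, so that cell 14 had the highest and cell 2 one of the lowest values among the 13 cells. Plac8 stood at 2.30, 11.05 and 9.89 against a highest comparison value of 6.72, which again set cell 2 apart from cells 8 and 14. Ebf2, an early factor of preadipocytes and beige fat, stood at 1.55, 0.14 and 0.49, against 1.18 to 6.14 with a median of 4.74, and 1 comparison cell (cell 10) lay below cell 2. Ebf1 stood at 3.21, 3.95 and 5.06, against 4.84 to 7.0 with a median of 6.12, and 1 comparison cell (cell 9) lay below cell 14. Across the 11 adipogenic transcription factors the median difference was 0.00. Of these 11, 2 (Ebf2 and Ebf1) had a median at least 2 lower, beside 6.62% of all rows. Pparg was the 1 with a median at least 2 higher (9.09%, beside 13.7% of all rows).

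Genes of retinoid handling, clotting and vitamin K use are given as neighbours of F3 and Mgp in function. Of 12 retinoid genes, 3 had a median at least 2 higher (25%, beside 13.7% of all rows). Aldh1a1, which makes retinoic acid, stood at 7.22, 7.08 and 5.93 against a median of 4.73, and 3 comparison cells exceeded cell 14. Dhrs3, a retinal reductase, stood at 8.20, 7.87 and 0 against a median of 4.51. Of the 13 clotting genes, 2, F3 among them, had a median at least 2 higher (15.4%, near the share of all rows). For 1, Thbs1, it was at least 2 lower, beside 6.62% of all rows. Tfpi, the inhibitor of F3, stood at 1.05, 7.21 and 6.80 against 2.83 to 7.65. Of the 9 vitamin K and mineralisation genes, 3 had a median at least 2 higher (33.3%, beside 13.7% of all rows). Among them was Mgp, which came with the rule. The others, each below detection in a Gdf10-high cell, were Ggcx, the carboxylase that activates the Mgp protein (3.87, 0.13 and 7.12, median 0.76), and Omd. Omd lies inside Cenpp on the opposite strand (6.06, 5.17 and 0.35, median 0.15).

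**Figure D4:**
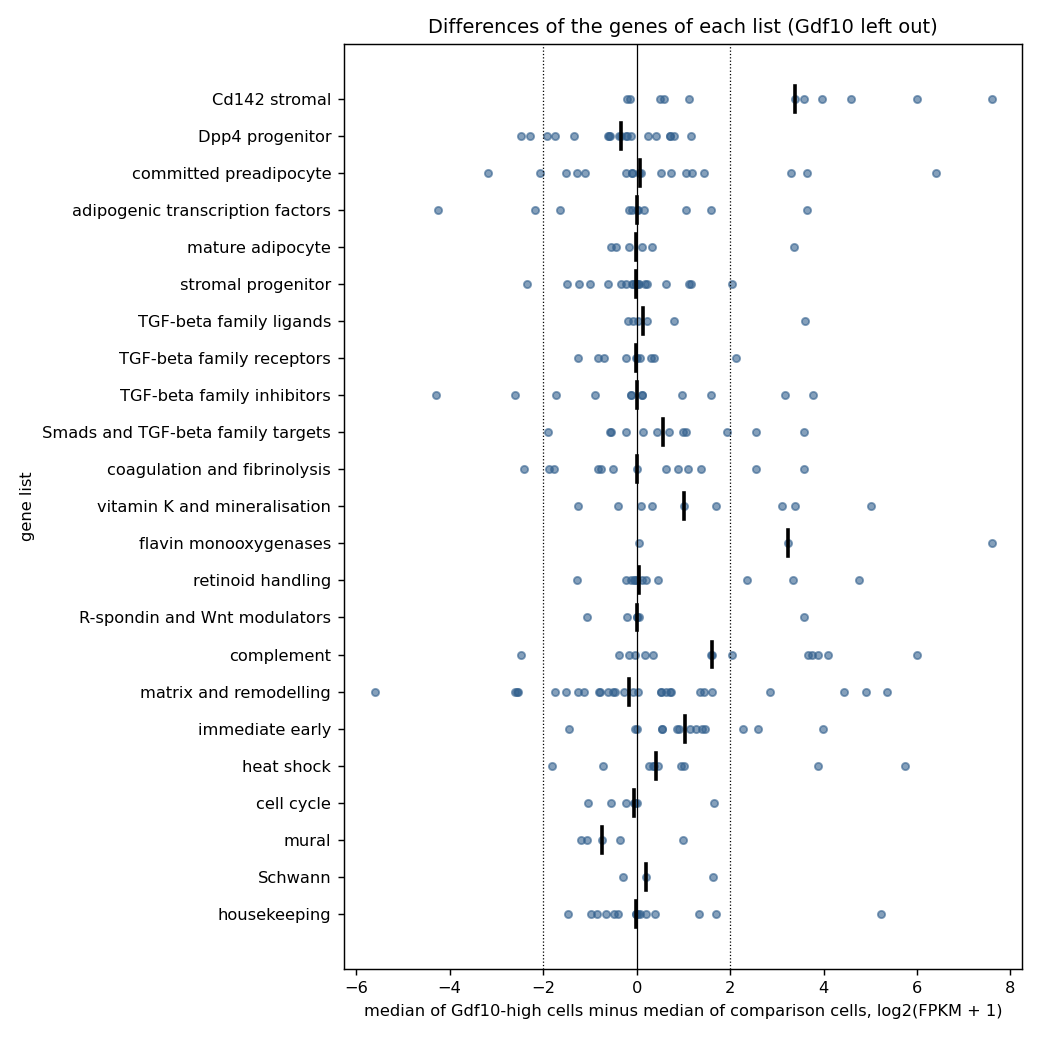
Median of the 3 Gdf10-high cells minus median of the 10 comparison cells on the log2(FPKM + 1) scale (x axis) for the genes of each list with at least 3 rows (y axis), 1 point per gene, with a black bar at the list's median and dotted lines at 2 and −2. The Cd142 list (median 3.39) and the complement list (1.61) lie to the right of the stromal progenitor list (−0.01).

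Some stress-response genes also stood higher in these cells. Of 14 immediate early genes, 3 had a median at least 2 higher (21.4%, beside 13.7% of all rows), and the list's mean was 6.40, 6.83 and 7.87 in cells 2, 8 and 14, against 3.01 to 8.96 with a median of 5.66. Atf3, a factor induced by stress, stood at 9.22, 8.70 and 7.28, against 1.43 to 7.68 with a median of 4.71. Hspa1a, an inducible heat shock protein, stood at 5.35, 8.75 and 6.59, against 0.21 to 6.25 with a median of 0.85. Comparison cell 3 (6.25) exceeded cell 2 for it. The near-identical Hspa1b stood at 5.53, 8.54 and 6.03, against 0.52 to 7.17 with a median of 2.14. Comparison cell 15 (7.17) exceeded cells 2 and 14 for it. Of 10 heat shock genes, these 2 had a median at least 2 higher (20%, beside 13.7% of all rows). The list had 8 positive differences and 2 negative ones, Dnajb1 (−1.82) and Dnaja1 (−0.71). The heat shock list's mean was 7.13 in cell 8, above all comparison cells (3.39 to 6.69), but 5.64 in cell 2 and 5.65 in cell 14, below comparison cells 3, 10 and 15. The part of this response in the differences above was not tested.

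Markers of other cell types were few and mostly low in the Gdf10-high cells, with Csf1r and the Schwann list as exceptions in cell 2. The mural list, with 5 of 12 genes having a row, had means of 1.16, 0.49 and 0.61 in cells 2, 8 and 14, within the comparison range of 0.39 to 2.37. Rgs5 and Kcnj8 were at 0 in cell 8 and below detection in cells 2 and 14. The endothelial list, with 2 of 10 genes, had means of 0.25, 0.11 and 0.87, against 0 to 2.66. Csf1r, the macrophage receptor and the only 1 of 11 immune genes with a row, stood at 6.39 in cell 2 and at 0 in cells 8 and 14. S100b, a Schwann cell marker, stood at 6.07 in cell 2, the highest of the 13 cells, while Mbp and Pmp22 of that list were detected in 2 and 3 of the Gdf10-high cells. No mesothelial, epithelial or skeletal muscle gene of the lists was analysed here. Cell 2 therefore had Csf1r and S100b, which were not detected in cells 8 and 14, and their part in its profile was not tested.

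As whole profiles, the 3 cells were not set apart as a tight group. Spearman correlations across 8022 genes, which are not independent replicates, were 0.515 between cells 2 and 8, 0.493 between cells 2 and 14 and 0.490 between cells 8 and 14. The 30 pairs of a Gdf10-high and a comparison cell ran from 0.424 to 0.555 with a median of 0.475, and the 45 pairs of comparison cells from 0.396 to 0.554 with a median of 0.450. Cell 8 was most like cell 2, but cell 2 was most like cell 7 (0.555), and cell 14 was most like cell 15 (0.515).

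The genes most like Gdf10 over the 13 cells were mostly not its reported companions. By Spearman correlation among genes detected in at least 5 of these cells, the nearest 10 included Uap1l1 (0.84), Sord (0.83), Sdf4 (0.83), Cst3 (0.82), Nicn1 (0.82), Nup35 (0.81), Gamt (0.80), Renbp (0.80) and Eml1 (0.79). Cst3, the secreted protease inhibitor cystatin C, stood at 12.98, 12.98 and 12.17, and the comparison cells ran from 8.54 to 12.72 with a median of 10.66. Sdf4, a calcium-binding protein of the Golgi, stood at 8.66, 7.80 and 7.90 against 5.39 to 8.39. For the check genes the correlation was 0.75 for F3, 0.54 for Fmo2, 0.48 for Clec11a and 0.40 for Mgp. These correlations were taken over all rows of few cells and are given as a description.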

How the data were processed

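RNA of 15 single Tomato+ cells was read with a SMART-Seq v4 3' kit and Nextera XT, per the labels' protocols. TopHat2, Cufflinks and the build GRCm38 are named, per the submitters' processing notes, without versions. The sources used here give no settings, row filter or scaling.

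The deposited table holds 8446 rows and 15 cell columns, tied to the cells by number, and 18 further columns without name or values. The authors' deposited values are on a log2 scale (highest 13.69), read as log2(FPKM + 1). The base was inferred, since back-transformed values sum to 592948 FPKM per cell on average. Sorted columns agree within 0.0354 above a value of 0.2, so the values had been quantile-normalized over the cells: each cell has 4369 rows at 1 FPKM or more, and a value reflects a rank. No label records this. The design had assumed that values might need a logarithm, and none was taken. FPKM divides by length, which a 3' kit does not need, so levels were not compared between genes.

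Symbols follow the table, except 15 turned into dates, which were restored through the gene identifier (8431 of 8441 identifiers matched the reference). Coordinates are from GENCODE M21 on GRCm38, and 250-base windows from RefSeq.

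A row was called higher when its lowest value in the Gdf10-high cells exceeded every comparison cell and each Gdf10-high cell was at 1 FPKM or more, and lower in the mirror case with each comparison cell at 1 FPKM or more. A second rule asked for a difference of medians of 2 or more (4-fold on the FPKM + 1 scale). Named were Gdf10, the check genes, the Cd142 list, up to 15 genes per direction by difference of medians without predicted, ribosomal and small RNA genes, the 10 genes most like Gdf10, and up to 4 members of each other list with the largest differences, with defining markers of other cell types. Further list members were named after their values were seen. The 29 lists held 380 genes, of which 250 had a row. The members and lists were chosen with earlier results of these data known. The comparison was tested on simulated data (Python 3.11.15, pandas 2.3.3). Alternatives changed the Gdf10 threshold, the cells, detection, filter, pseudocount, scale and summary. Some genes that the rules select are counted but not reported here.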

Additional observations from a re-analysis of the deposited data

How the results depend on the processing

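The differences of medians of Mgp and F3, the check genes that overlapped, kept their sign under all alternatives that were run. Those of Fmo2, Clec11a and the other named genes that did not overlap did so too. For these genes the choice by non-overlap fixed the sign in advance, so it is no measure of their stability. The counts depended on which cells were compared. With Gdf10 at 5 or more, which moves cell 7 into the set, 8 rows were higher and 5 lower, and 0 of the 19 higher rows and 4 of the 15 lower rows were among them. With Gdf10 at 7 or more, which moves cell 14 to the comparison, 105 were higher and 37 lower, of which 9 and 6 were shared. With cells 5 and 13 kept in the comparison, 12 were higher and 7 lower, and Loxl1 and Thbs2 no longer separated. Without cells 1, 11 and 14, which have the most rows at their lowest value, 166 were higher and 71 lower. Detection at 5 FPKM left 7 lower rows. Leaving out 1 cell at a time gave 23 to 115 higher and 16 to 46 lower rows; fewer cells make it easier for values not to overlap, and the counts of higher and lower rows were 115 and 46 without cell 14, 97 and 32 without cell 2, 84 and 44 without cell 8, 30 and 18 without cell 3, 28 and 23 without cell 9, and 23 and 23 without cell 12. By the rule on medians, leaving out 1 cell gave 1145 to 1383 higher and 540 to 621 lower rows.

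Means in place of medians gave 654 higher and 430 lower rows by the size rule, so that 60.3% of these calls were higher in place of 67.4%, and the median difference over all rows moved from 0.00 to −0.10. A pseudocount of 0.1 gave 1629 higher and 1113 lower rows (59.4% higher). The difference of medians of Fmo2 was 5.90 with Gdf10 at 5 or more, 8.73 with a pseudocount of 0.1 and 6.18 with means, and 5.85 to 7.79 when 1 cell was left out. That of Clec11a was 5.81 with Gdf10 at 7 or more, 6.58 with a pseudocount of 0.1 and 5.96 without cells 1, 11 and 14, and 4.16 to 5.87 when 1 cell was left out. For Mgp and F3 the ranges when 1 cell was left out were 2.61 to 4.99 and 2.33 to 4.40. No paired analysis was possible because the labels give 1 group. Depth is unknown, and low values cannot be told from missed transcripts.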

Other observations

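The genes that ran most against Gdf10 over the 13 cells were Timm10 (Spearman correlation −0.89), Arhgef40 (−0.86), Bcap31 (−0.85), Clstn1 (−0.84) and Usp22 (−0.81). Timm10, a chaperone of mitochondrial import, stood at 0, 0.51 and 0 in cells 2, 8 and 14, and at 0.83 to 7.09 with a median of 2.21 in the comparison cells.

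Sfrp2 and Sfrp4, secreted Wnt-binding proteins, stood at 10.19 and 10.10 in cell 2, at 0.30 and 6.44 in cell 8 and at 0.27 and 1.77 in cell 14, so that the Gdf10-high cells differed among themselves. Fmo1, a relative of Fmo2, likewise stood at 8.10 and 8.22 in cells 2 and 8 and at 2.08 in cell 14, against 0 to 8.85 with a median of 4.86.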
